A study of Mus musculus with 8 samples.

Results

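The citric acid cycle enzymes described here are 9 genes: Cs, Idh2, Idh3a, Idh3b, Idh3g, Ogdh, Sucla2, Mdh1 and Mdh2. They were taken by symbol and leave out the succinate dehydrogenase subunits. All 9 were among the 17983 symbols of the deposited tables, and all 9 were among the 14895 genes that passed the filter on low counts. Messenger RNA was measured in 8 brain libraries of male db/db mice, which carry a mutated leptin receptor and become obese and diabetic. In 4 libraries, called ketogenic, the mice ate a ketogenic diet, in which fat replaces most carbohydrate, from 9 weeks of age until whole brains were taken at 6 months. In the other 4, called control, the diet was normal. Both groups share genotype, sex and the ages of 9 weeks at diet start and 6 months at sampling. Each difference below is between the ketogenic and control libraries.

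The cycle oxidizes acetyl units from glucose, fatty acids or ketone bodies in the mitochondrial matrix and passes the electrons to the respiratory chain. Citrate synthase (Cs) joins acetyl-CoA to oxaloacetate, isocitrate dehydrogenases and the alpha-ketoglutarate dehydrogenase complex release carbon dioxide, and malate dehydrogenase restores oxaloacetate. In brain the cycle also supplies the carbon of glutamate and GABA, and cytosolic and mitochondrial malate dehydrogenases carry reducing equivalents between compartments in the malate-aspartate shuttle.

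Of the 9 genes, 2 rose on the ketogenic diet, 0 fell and 7 did not pass. The genes that rose were Idh2, by 1.29-fold, and Mdh1, by 1.19-fold. Over all tested genes 6.52% passed in either direction, 3.30% as higher and 3.22% as lower. An unadjusted p under 0.05 was found for 4 of the 9 (Idh2, Idh3g, Mdh1 and Mdh2) and for 24.6% of all tested genes. The median log2 change of the 9 genes was 0.07, and that of all tested genes was 0.00. The change was positive in 8 of the 9, the exception being Idh3g, and in 49.3% of all tested genes. To pass, a gene needed a p below 0.05 by the quasi-likelihood method of edgeR once Benjamini-Hochberg adjusted over all tested genes. Levels within a gene are given as CPM, counts relative to the library total after scaling by trimmed mean of M values, and a standard error (SE) belongs to the log2 change.

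The promoters of 3 genes are shown because the results turn on them: Idh2 and Mdh1 rose, and Idh3g had the change of opposite sign. Each window runs from 250 bases before to 50 bases after a RefSeq transcription start on GRCm38.p6, 5′ to 3′ on the gene's own strand, which is the minus strand for all 3. The windows are chr7:80115301-80115600 for Idh2, chr11:21571885-21572184 for Mdh1 and chrX:73786848-73787147 for Idh3g. Capitals mark exact matches, on either strand, to the letters CCAAT or GGGCGG, known as the NF-Y and Sp1 motifs. No marked matches overlap.
Idh2: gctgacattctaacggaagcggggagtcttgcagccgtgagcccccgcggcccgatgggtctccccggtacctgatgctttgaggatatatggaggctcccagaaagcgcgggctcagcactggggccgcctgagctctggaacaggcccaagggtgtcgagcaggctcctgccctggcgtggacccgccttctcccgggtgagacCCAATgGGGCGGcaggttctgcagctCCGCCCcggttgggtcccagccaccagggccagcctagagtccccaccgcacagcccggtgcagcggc
Mdh1: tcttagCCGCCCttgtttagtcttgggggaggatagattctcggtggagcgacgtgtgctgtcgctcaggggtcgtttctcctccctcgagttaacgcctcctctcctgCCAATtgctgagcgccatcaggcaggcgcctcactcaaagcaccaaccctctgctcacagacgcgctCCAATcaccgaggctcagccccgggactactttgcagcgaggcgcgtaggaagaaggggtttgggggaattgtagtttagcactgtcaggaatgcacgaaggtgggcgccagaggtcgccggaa
Idh3g: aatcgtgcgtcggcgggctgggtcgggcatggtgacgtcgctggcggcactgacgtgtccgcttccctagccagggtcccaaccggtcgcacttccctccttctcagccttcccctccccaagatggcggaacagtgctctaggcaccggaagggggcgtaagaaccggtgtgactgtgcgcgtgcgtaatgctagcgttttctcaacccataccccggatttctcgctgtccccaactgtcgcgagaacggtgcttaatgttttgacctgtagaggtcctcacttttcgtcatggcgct

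RefSeq windows were at hand for 8 of the 9 genes (not Idh3a, and 6 windows for Ogdh). The letters GGGCGG were in the windows of 6 genes (Cs, Idh2, Ogdh, Sucla2, Mdh1 and Mdh2) and in 35.7% of all 32851 windows. CCAAT was in those of 5 genes (Cs, Idh2, Idh3b, Ogdh and Mdh1) and in 37.4% of all windows. The NRF1 motif occurred in Sucla2 alone among the 8 (4.6% of all windows), and the E-box CACGTG in Ogdh alone (7.15%). Neither the GABP letters CCGGAAGT (3.89% of all windows) nor the ERR letters TCAAGGTCA (0.423%) occurred in these windows. The Idh3g window matched none of the 6 motifs searched, on both strands. Idh2 and Mdh1 each held both CCAAT and GGGCGG, as did Cs and Ogdh, which did not pass the diet test. A match is a run of letters, not a measured binding site. Each gene was counted once over all its windows, whereas the shares are per window. The windows of Cs, Idh2, Idh3g, Sucla2, Mdh1 and Mdh2 were 58.7% to 68.3% GC, beside a median of 52.7% over all windows. The Idh3b window was at 50.3% and the Ogdh windows at 49.3% to 72.3%. The part of GC content in these matches was not tested.

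Total counts ran from 34450860 to 38738800 in control and from 38163795 to 40233361 in ketogenic libraries. The least abundant of the 9 genes, Idh2, had at least 1235 counts in every library. Ketogenic replicate 3 stood apart on the first principal component of log2 CPM (22.9% of the variance), at 34.4, with the other ketogenic libraries at 2.90 to 11.2 and controls at -22.7 to -5.94. Whether each library came from a separate mouse is not stated, so p-values refer to differences between these libraries. The edgeR p and SE also draw on the spread of other genes, so they need not follow a gene's own spread. Brain markers were present: all 10 neuron, 8 astrocyte and 8 oligodendrocyte markers were tested and none was at 0. Their summed levels were 9001 to 9939 CPM in control and 8435 to 9891 CPM in ketogenic libraries for neurons, 4717 to 5552 and 4598 to 5205 CPM for astrocytes, and 5213 to 5524 and 4840 to 6399 CPM for oligodendrocytes. Of the astrocyte markers 4 of 8 fell, and of the erythroid markers 4 of 5 rose, the latter summing to 15.3 to 52.4 CPM in control and 69.4 to 114 CPM in ketogenic libraries, with none at 0. Choroid plexus markers (0 of 5 passing, none at 0) summed to 586 to 1134 CPM and 1058 to 1364 CPM, and pericyte markers (1 of 5 lower, none at 0) to 107 to 141 CPM and 93.1 to 108 CPM. The part of these cell types in the differences of the 9 genes was not tested. In a whole-brain library, fewer cells of a type and less RNA per cell cannot be told apart.

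**Figure D1:**
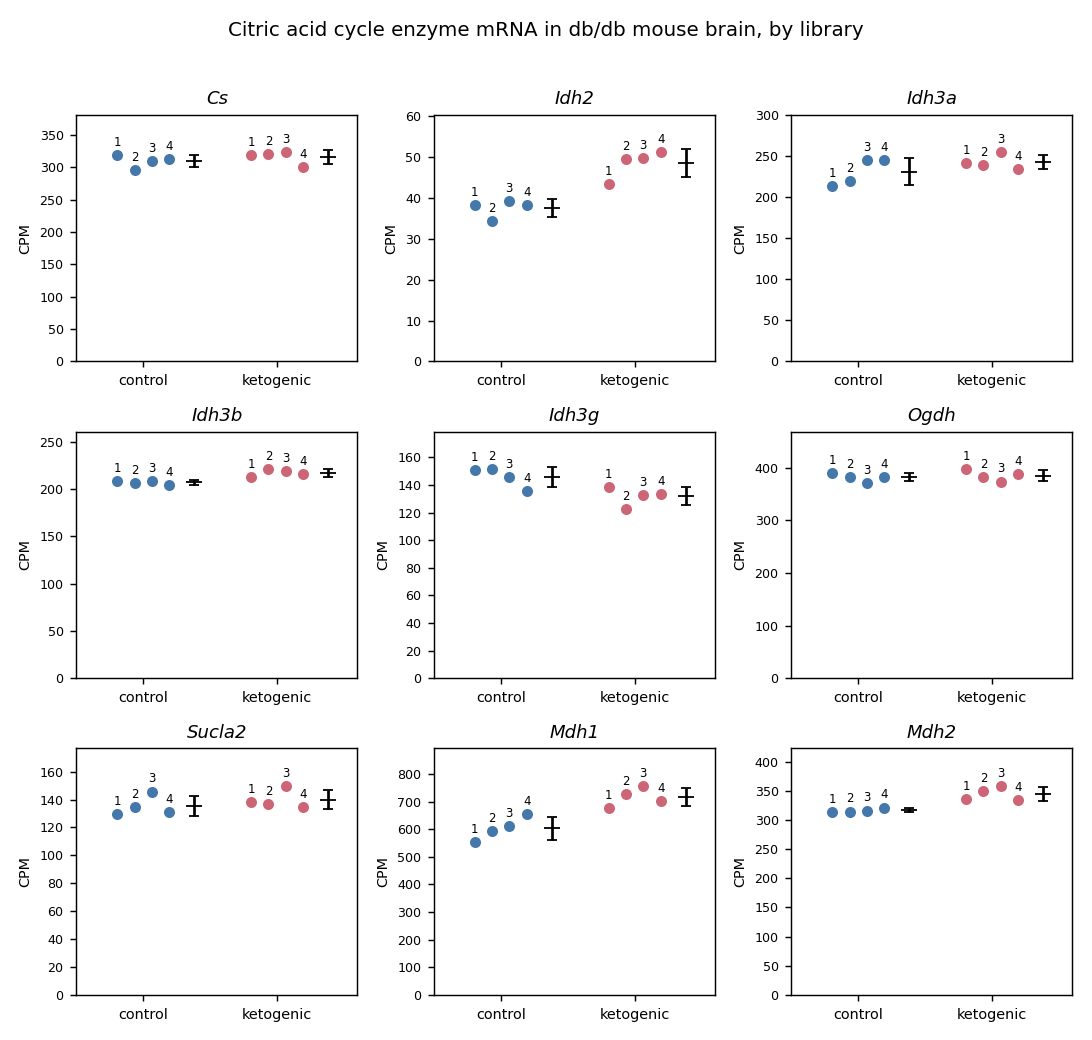
CPM of each of the 9 genes (vertical axes, from 0) in the 4 control (blue) and 4 ketogenic (red) libraries, numbered by replicate, with the mean and SD of each group as black bars. The groups do not overlap for Idh2, Idh3b, Mdh1 and Mdh2.

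Citrate synthase, the entry step, did not pass. Cs was at 320, 297, 310 and 314 CPM in control replicates 1 to 4 and at 319, 321, 323 and 301 CPM in ketogenic replicates 1 to 4. The ranges overlapped almost fully, and the log2 change was 0.03 ± 0.05 (SE, edgeR adjusted p = 0.771). An interval of 2 SE on each side ran from -0.07 to 0.13.

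Isocitrate dehydrogenase has a mitochondrial NADP+-dependent form, encoded by Idh2, which makes NADPH, and an NAD+-dependent form built from catalytic (Idh3a) and other (Idh3b, Idh3g) subunits. Only the Idh2 change passed among these 4 genes. Idh2 was at 38.4, 34.4, 39.3 and 38.3 CPM in control replicates 1 to 4. It was at 43.5, 49.5, 49.7 and 51.2 CPM in ketogenic replicates 1 to 4. Every ketogenic library was above every control library, with control replicate 2 lowest in its group and ketogenic replicate 1 lowest in its own. The mean rose from 37.6 ± 2.21 to 48.5 ± 3.42 CPM (SD, n = 4 each), which is 0.37 ± 0.07 in log2 (SE; adjusted p = 0.0116 by edgeR). Of all tested genes 0.739% had a smaller p. The call held with each single library left out, with adjusted p from 0.00818 to 0.0483, and was 0.0216 without ketogenic replicate 3. Leaving out both ketogenic replicate 3 and ketogenic replicate 4 ended it (log2 change 0.31, adjusted p = 0.111), as did limma on unfiltered log2(FPKM + 1) (0.063). Idh1, the cytosolic and peroxisomal NADP+-dependent enzyme, averaged 49.8 ± 4.93 CPM on the control diet and 49.9 ± 2.52 CPM on the ketogenic diet (SD; edgeR adjusted p = 0.983).

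The subunit genes of the NAD+-dependent enzyme did not pass and had changes of both signs. Idh3a was at 214, 220, 245 and 245 CPM in control replicates 1 to 4 and at 242, 240, 254 and 234 CPM in ketogenic replicates 1 to 4. The control values of Idh3a spread more widely than the ketogenic ones and overlapped them (log2 change 0.07 ± 0.06, edgeR adjusted p = 0.488). Idh3b read 209, 207, 209 and 204 CPM on the control diet and 213, 221, 220 and 216 CPM on the ketogenic diet. These groups did not overlap, yet the distance between the means, 207 ± 2.27 to 217 ± 3.85 CPM (SD, n = 4 each), came to 0.07 ± 0.05 in log2 and missed the threshold (edgeR adjusted p = 0.389). Over all tested genes 13.7% had groups that did not overlap, 7.22% had every ketogenic value above every control value and 6.51% had every one below. Of the 9 genes 4 were of the first kind (Idh2, Idh3b, Mdh1 and Mdh2) and 0 of the second.

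Idh3g, the gamma subunit gene, was at 151, 151, 146 and 136 CPM in control replicates 1 to 4 and at 139, 123, 133 and 134 CPM in ketogenic replicates 1 to 4. Only control replicate 4 fell within the ketogenic range. Its log2 change was -0.14 ± 0.06 (SE), with an edgeR adjusted p of 0.126 and an unadjusted p of 0.0207. Without control replicate 4 the change was -0.17 and passed as lower (edgeR adjusted p = 0.0472). In that fit 12.7% of tested genes passed, beside 6.52% with all libraries. Set against Idh3b in the same library, Idh3g FPKM was 0.758, 0.771, 0.735 and 0.699 of Idh3b in control replicates 1 to 4 and 0.686, 0.585, 0.636 and 0.653 in ketogenic replicates 1 to 4. This pair was chosen after its values were seen and was not tested: the mean ratio was 0.741 ± 0.032 in control and 0.640 ± 0.042 in ketogenic libraries (SD, n = 4 each), without overlap.

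**Figure D2:**
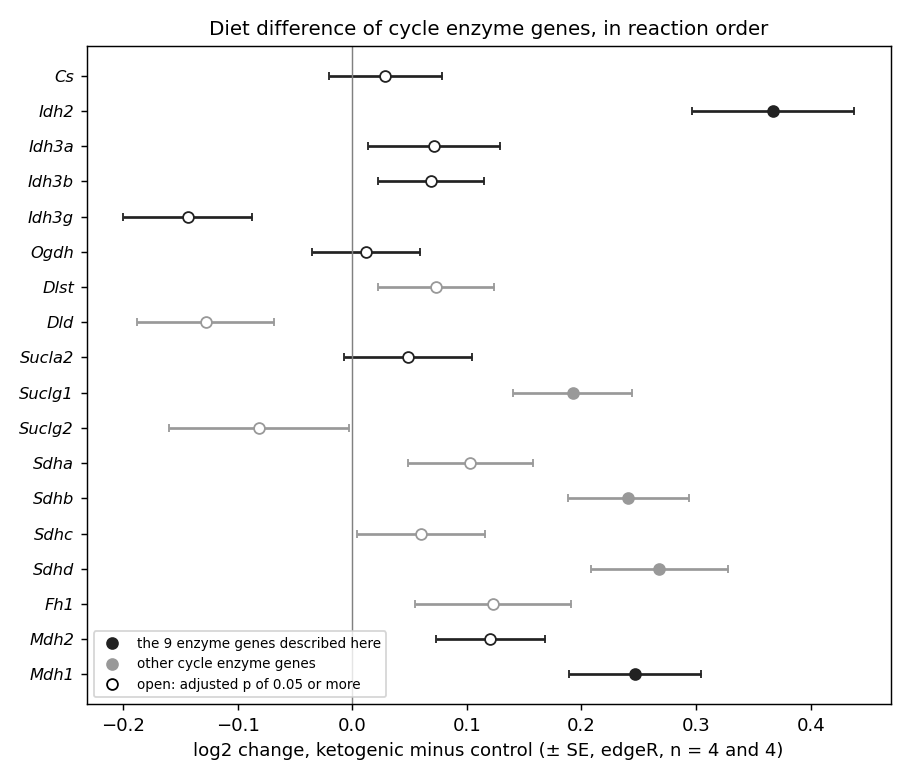
Log2 change, ketogenic minus control, with its SE (horizontal axis) for the 9 enzyme genes (black) and 9 other cycle enzyme genes (grey), in the order of the reactions, with filled points for genes that passed. Idh2, Mdh1, Suclg1, Sdhb and Sdhd pass, all to the right of 0, and Idh3g lies farthest to the left.

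The next steps, from alpha-ketoglutarate to succinate, showed small differences. Ogdh encodes the first subunit of the alpha-ketoglutarate dehydrogenase complex. Its control replicates 1 to 4 read 391, 384, 372 and 383 CPM, and its ketogenic replicates 398, 383, 374 and 388 CPM. With replicate 3 lowest in both groups and nearly equal means, the log2 change was 0.01 ± 0.05 (edgeR adjusted p = 0.909). Sucla2, the beta subunit of ADP-forming succinyl-CoA ligase, read 130, 134, 146 and 131 CPM on the control diet and 138, 137, 150 and 135 CPM on the ketogenic diet. Its groups overlapped as well, replicate 3 being highest in each (log2 change 0.05 ± 0.06, adjusted p = 0.645). An interval of 2 SE on each side ran from -0.08 to 0.11 for Ogdh and from -0.06 to 0.16 for Sucla2. Suclg1, which encodes the alpha subunit that pairs with the Sucla2 product, did pass, rising from 79.8 ± 3.43 to 91.2 ± 0.43 CPM (SD, n = 4 each; log2 change 0.19 ± 0.05, edgeR adjusted p = 0.0399). The Suclg1 call was lost without any single library but control replicate 4 (log2 change 0.17 to 0.21 over all 8 omissions, adjusted p of up to 0.122). It was lost too after a trend on GC content and length was taken out (0.17, 0.101), without both ketogenic replicates 3 and 4 (0.19, 0.175) and with limma on unfiltered log2(FPKM + 1) (0.0679). The difference between the 2 subunits' changes was not tested.

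Malate dehydrogenase had higher ketogenic values in both compartments, and the cytosolic gene passed. Mdh1, the cytosolic enzyme of the malate-aspartate shuttle, was at 555, 595, 612 and 654 CPM in control replicates 1 to 4. In ketogenic replicates 1 to 4 it was at 678, 729, 757 and 702 CPM. The lowest ketogenic library was above the highest control library, control replicate 4, by a margin smaller than the spread within either group. The mean rose from 604 ± 41.4 to 716 ± 33.99 CPM (SD, n = 4 each), which is 0.25 ± 0.06 in log2 (SE; adjusted p = 0.0244 by edgeR). Of all tested genes 2.28% had a smaller p. The Mdh1 call was lost without control replicate 1 (log2 change 0.21, adjusted p = 0.0879), control replicate 2 (0.0757), control replicate 3 (0.051) or ketogenic replicate 2 (0.0711). Leaving out both ketogenic replicate 3 and ketogenic replicate 4 ended it too (0.118), as did limma on log2(FPKM + 1), filtered (0.0514) or not (0.0848). Without ketogenic replicate 3 it held, with a change of 0.22 (0.0381).

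Mdh2, the mitochondrial enzyme that closes the cycle, was at 315, 315, 316 and 322 CPM in control replicates 1 to 4 and at 335, 350, 358 and 334 CPM in ketogenic replicates 1 to 4. The control libraries lay within a narrow band below all ketogenic ones. The log2 change was 0.12 ± 0.05 (SE), with an unadjusted p of 0.0222 and an edgeR adjusted p of 0.131. Once the trend on GC content and length was taken out it was 0.05 (0.64).

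**Figure D3:**
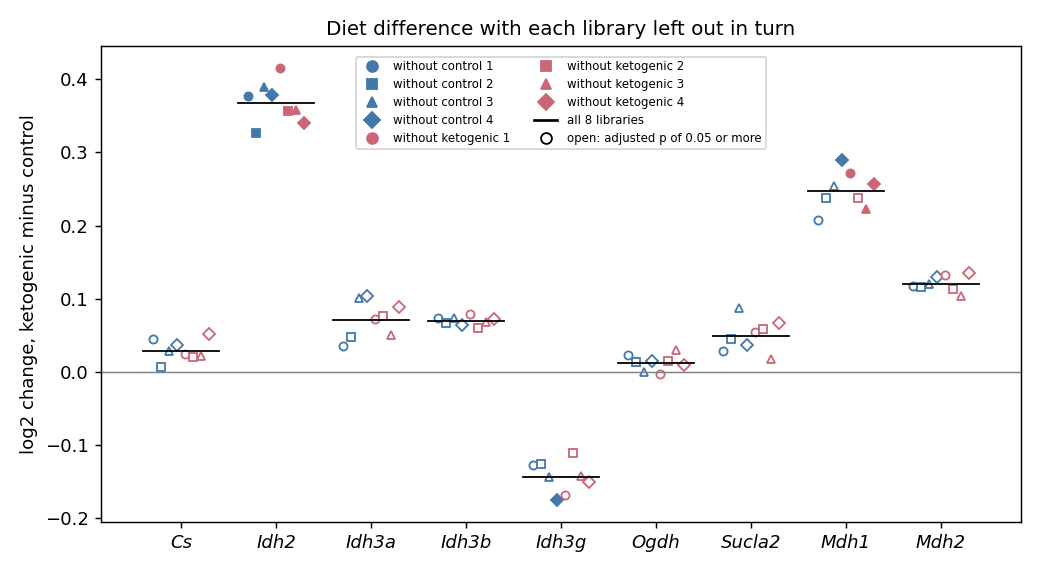
Log2 change of each of the 9 genes, ketogenic minus control (vertical axis), with all 8 libraries (black lines) and with each library left out in turn (symbols, filled where the gene passed). Idh2 passes in all 8 omissions, between 0.33 and 0.42, Mdh1 in 4 of the 8, and Idh3g only without control replicate 4.

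More of the 9 genes were above their own mean in each ketogenic library than in any control library. Such counts include the diet differences given above, and joint variation within a group was not tested. Counting the genes above their own mean over the 8 libraries gave 3, 1, 3 and 2 of 9 in control replicates 1 to 4 and 8, 6, 7 and 5 of 9 in ketogenic replicates 1 to 4. The median deviation from that mean was largest in ketogenic replicate 3, at 0.11 in log2, and lowest in control replicates 1 and 2, at -0.07 each. Variation within a group was below the median of other genes for 7 of 9 genes in control and 8 of 9 in ketogenic libraries. The coefficient of variation of CPM ran from 1.03% (Mdh2) to 7.19% (Idh3a) in control libraries and from 1.77% (Idh3b) to 7.05% (Idh2) in ketogenic libraries. For all tested genes with a mean of at least 10 CPM the medians were 6.76% and 6.31%. These medians were not matched for abundance. In mean CPM, Idh2 was above 64.9% of tested genes and each of the others above at least 88.3%.

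Ratios between enzymes within a library do not depend on how libraries are scaled, and 4 were compared between diets by an exact permutation test, two-sided, in which the 70 ways to assign diets allow no p under 0.0286, with Benjamini-Hochberg adjustment over the 4. The ratio of Idh2 FPKM to the mean FPKM of the 3 NAD+-dependent subunit genes was 0.0626, 0.0558, 0.0625 and 0.0626 in control replicates 1 to 4. It was 0.0697, 0.0809, 0.0785 and 0.0832 in ketogenic replicates 1 to 4. All ketogenic values lay above all control values, with a difference of 0.36 in log2 (exact permutation p = 0.0286, adjusted p = 0.114). The ratio of Mdh1 to Mdh2 was 1.15, 1.24, 1.27 and 1.33 in control and 1.32, 1.36, 1.38 and 1.38 in ketogenic libraries. Control replicate 4 lay above ketogenic replicate 1, and the difference of 0.13 in log2 had an exact permutation p of 0.0571 (adjusted p = 0.114). Once the GC and length trend was taken out these differences were 0.33 and 0.24, each at 0.0381 after adjustment in the same exact permutation test. The Idh2 ratio had the lowest possible p before this step too, so its lower adjusted p came from the other ratios.

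In the other ratios the groups overlapped, and neither difference passed on the deposited FPKM. Idh3a to the mean of Idh3b and Idh3g was 0.811 ± 0.077 in control and 0.861 ± 0.027 in ketogenic libraries (SD, n = 4 each; exact permutation p = 0.314, adjusted p = 0.419). Ogdh to Sucla2 was 0.905 ± 0.064 and 0.881 ± 0.057 (exact permutation p = 0.514, adjusted p = 0.514). The sign of the latter turned without ketogenic replicate 3. Once the GC and length trend was taken out, the difference in Ogdh to Sucla2 went from -0.04 to -0.14 in log2 and passed (exact permutation, adjusted p = 0.0381). That in the Idh3a ratio went from 0.09 to 0.17 and did not pass (0.0857).

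**Figure D4:**
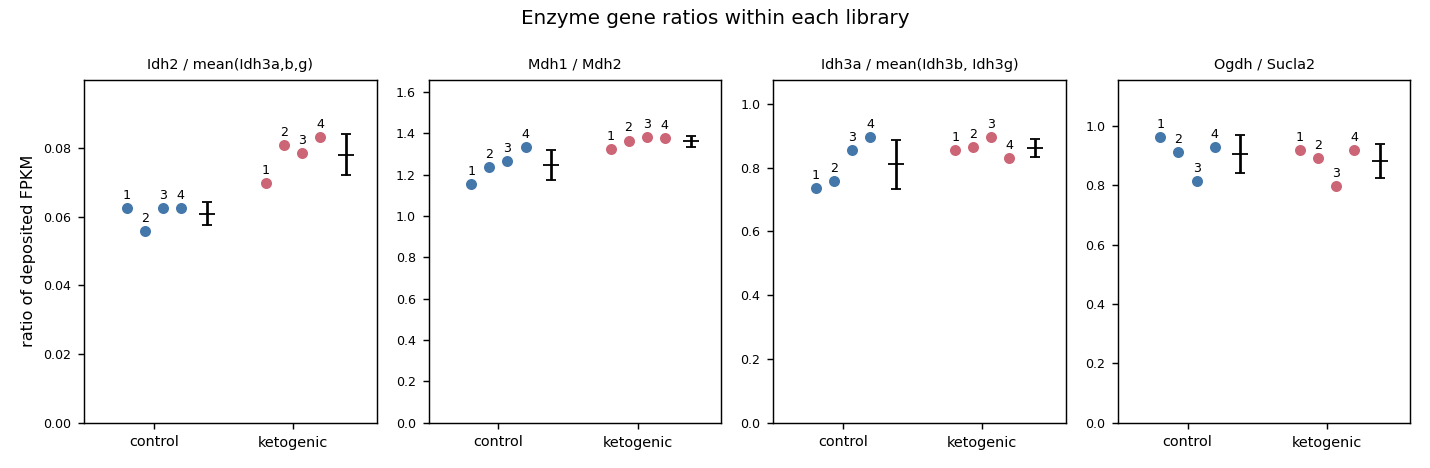
Ratios of deposited FPKM within each library (vertical axes, from 0) in control (blue) and ketogenic (red) libraries, numbered by replicate, with the mean and SD as black bars. The groups are apart for Idh2 against the Idh3 subunits, overlap by 1 control library for Mdh1 against Mdh2, and overlap widely for the other 2 ratios.

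Levels between genes can be compared only per length, and the deposited FPKM values use 1 length per gene. For 7 of the 9 genes that length was 0.88 to 1.08 times the longest coding transcript of GENCODE M21. For Idh2 it was 5556 bases against a transcript of 1745 bases (3.18 times), and for Ogdh 7547 against 4127 bases (1.83 times). Both deposited lengths were also above all GENCODE M21 exons of the gene joined, at 2588 bases for Idh2 and 5456 for Ogdh. The gene models behind the counts are not given, so which length suits Idh2 and Ogdh cannot be told. On the deposited FPKM scale the control order was Mdh1 (308 ± 23.7), Mdh2 (247 ± 4.58), Idh3b (136 ± 0.52), Cs (104 ± 2.94), Idh3g (101 ± 4.57), Idh3a (95.9 ± 7.37), Sucla2 (56.0 ± 2.97), Ogdh (50.6 ± 1.08) and Idh2 (6.75 ± 0.38; mean ± SD, n = 4). The ranges of Cs, Idh3g and Idh3a overlapped with their neighbours in that order, and those of the other neighbours did not. In ketogenic libraries Idh3a (101 ± 1.54) was above Idh3g (91.5 ± 4.32), and no neighbouring ranges overlapped.

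With the GENCODE transcript lengths in place of the deposited ones, Idh2 was at 21.5 ± 1.19 FPKM in control and 27.8 ± 2.21 FPKM in ketogenic libraries (SD, n = 4 each), still the lowest of the 9. Ogdh moved from 50.6 to 92.4 FPKM in control and above Sucla2, at 60.6 FPKM, and its range overlapped that of Idh3a (89.3 FPKM). The distance of Idh2 from the other enzymes therefore depended on the length used: the next enzyme above it in control was 7.49-fold higher (Ogdh) on the deposited lengths and 2.82-fold higher (Sucla2) on the transcript lengths. Diet differences from the counts, without trend removal, do not depend on these lengths, since each gene has the same length in every library. The GC and length trend used the deposited lengths, and so did the fits and ratios on FPKM. In the diet difference of the log2 ratios Mdh1 to Mdh2 and Ogdh to Sucla2, without trend removal, a fixed length cancels. The length of Idh2 cancels in the same way in its ratio to the Idh3 subunits. How the trend removal, the fits on FPKM and the ratios with averaged subunits would change with the transcript lengths was not tested.

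**Figure D5:**
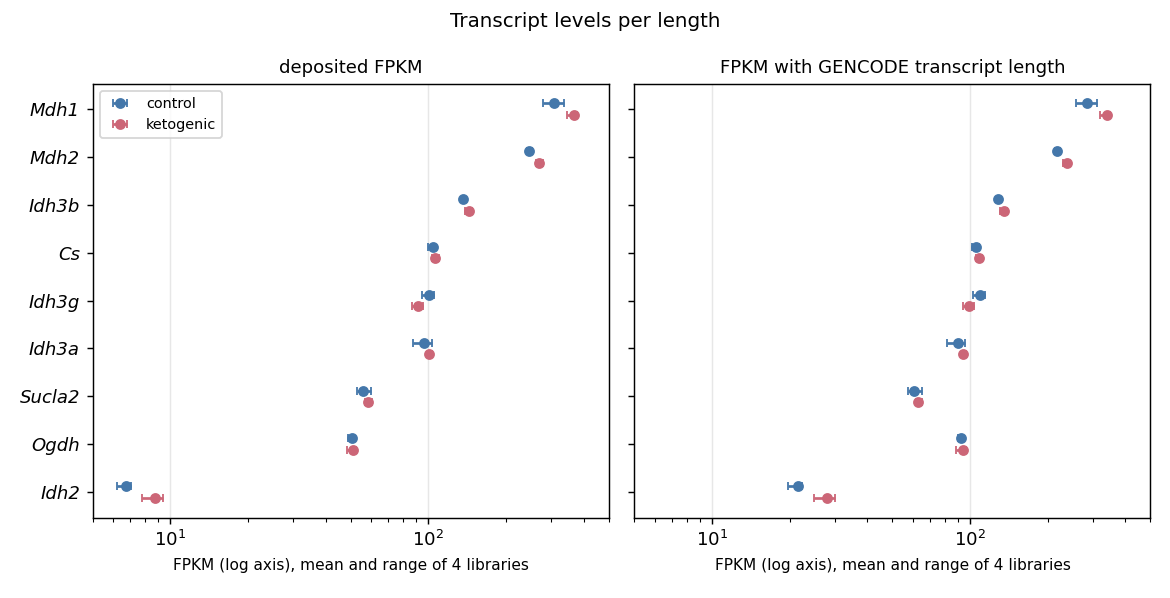
FPKM on a log axis, mean and range of 4 libraries per diet, for the 9 genes with the deposited lengths (left) and with GENCODE transcript lengths (right). Idh2 is lowest on both scales, at 6.75 and 21.5 in control, and Ogdh and Sucla2 change places.

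The genes lie on 8 chromosomes (Mdh1 and Ogdh share chromosome 11). By GENCODE M21 gene bounds on GRCm38, Idh2 spans chr7:80094846-80115392 (minus strand, 11 exons in its longest coding transcript) and Mdh1 spans chr11:21556787-21572367 (minus strand, 9 exons). Within the Idh2 bounds lies Gm45203, an unclassified transcript of 1831 bases on the same strand. Mdh1 overlaps Wdpcp on the other strand and Gm22990, a microRNA gene, on its own strand, each by at most 133 bases. The use of strand in counting is not given in the sources used here, so reads from such overlaps cannot be told apart.

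The other enzymes of the cycle gave a similar picture in size. Of 10 such genes 3 rose, 0 fell and 7 did not pass, with a median log2 change of 0.09 beside 0.00 for all tested genes. The genes that rose were Suclg1, given above, and Sdhb and Sdhd, subunits of succinate dehydrogenase. Sdhb went from 90.4 ± 2.65 to 107 ± 4.64 CPM and Sdhd from 61.1 ± 3.20 to 73.6 ± 3.36 CPM (SD, n = 4 each; edgeR adjusted p = 0.019 and 0.02). Neither call held when control replicate 1 or 2, or ketogenic replicate 2, was left out (adjusted p of up to 0.0735), nor without both ketogenic replicates 3 and 4 (up to 0.122), nor with limma on unfiltered log2(FPKM + 1) (0.054 and 0.0597). The Sdhb call was lost once the GC and length trend was taken out (log2 change 0.16, 0.136). Fh1, fumarase, had a log2 change of 0.12 ± 0.07, and Dlst, the second subunit of the Ogdh complex, of 0.07 ± 0.05. Dld, the third subunit of that complex, had a change of -0.13 ± 0.06. None of these 3 passed (edgeR adjusted p of 0.285, 0.405 and 0.197). Dld did pass as lower without control replicate 4 (0.0398), a fit in which 12.7% of tested genes passed. Once the GC and length trend was taken out, the Dld change was -0.02 (0.895).

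No gene on the lists for neighbouring pathways passed. Of 5 malate-aspartate shuttle partners, a list that leaves out Mdh1 and Mdh2, 0 passed, with positive changes in all 5 and a median of 0.09. The transaminase genes Got1 and Got2 had log2 changes of 0.09 ± 0.05 and 0.10 ± 0.05 (edgeR adjusted p = 0.27 and 0.205). Of 12 genes of pyruvate entry 0 passed (median 0.03), and of 13 genes that fill or drain the cycle 0 (median 0.02). Of 12 lipoate and assembly factors 0 passed (median 0.08). Of 4 tested paralogs of cycle enzymes 0 passed, with changes from -0.17 to 0.20 (median -0.06). Csl, a citrate synthase-like gene, did not pass the filter on low counts.

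Among all other tested genes, those with the profile most like Idh2 over the 8 libraries were Snf8, an ESCRT-II subunit gene, Atp5g3, of the ATP synthase ring, and Gpt2, a mitochondrial alanine transaminase. Their root mean square differences from Idh2 in centred log2 CPM were 0.0476, 0.0598 and 0.0616, beside 0.201 for the profile of Idh2 itself. Of the other 8 enzymes Mdh1 was closest to Idh2, at 0.107 and rank 178 of 14894 genes, and Idh3g farthest, at 0.285 and rank 9057. For Mdh1 the nearest genes were Naa25, an N-terminal acetyltransferase subunit, Ran, a small GTPase, and Pebp1, a phosphatidylethanolamine-binding protein, at 0.02, 0.0259 and 0.0299. Mdh2 was the nearest enzyme to Mdh1, at 0.0847 and rank 699. These distances describe 8 libraries that include the diet difference, and they were not tested.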

How the data were processed

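The authors deposited raw counts per gene symbol (count table) and FPKM values for the same 8 libraries. Per the labels' protocols, RNA was column purified and 1.3 ug of total RNA went into each SMARTer messenger RNA library. Per the submitters' processing notes the builds were GRCm38 and mm10. Aligner, counter, strand use and annotation: not given in the sources used here. Deposited FPKM values equalled the counts per library total and 1 fixed length per gene (largest relative spread of that length 1.79e-07).

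Diet was tested on the counts with edgeR 4.0.16 (TMM factors, filterByExpr, quasi-likelihood F test, intercept and diet), which kept 14895 of 17983 genes. The SE is the log2 change divided by the square root of F. Ratios came from deposited FPKM. Alternatives used other scalings and filters, limma 3.58.1 on FPKM and as voom, DESeq2 1.42.0, a replicate block, a loess trend on GC content and log2 length (span 0.3, GC known for 98.1% of tested genes) and left-out libraries.

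The enzymes, gene lists and marker lists were chosen with earlier results of these data known. Named besides the 9 enzymes are called genes of the fixed lists (at most 6 each), Dlst, Dld, Suclg1, Fh1, Idh1, Got1 and Got2, and the 3 nearest profiles per called enzyme. A gene that this rule also names is not reported here. Libraries of a group differed by more than sampling noise (chi-square per gene of 9.72 to 23.5). Of the symbols, 17382 matched GENCODE M21. Remaining marker lists: oligodendrocyte precursors had 1 of 5 lower, microglia 1 of 7 higher, endothelial cells 0 of 6 and skeletal muscle 0 of 2 tested passing.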

Additional observations from a re-analysis of the deposited data

Results flagged for a closer look

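The log2 ratio of Idh2 FPKM to the mean FPKM of Idh3a, Idh3b and Idh3g had 1 control library far from the other 3. Control replicate 2 was at -4.16 and the next lowest control library at -4.00, a gap that took up 0.98 of the range of the 4 control values, above the critical value of 0.829. The other 3 control values lay close together, from -4.000 to -3.997. Among the 26 groups of 4 values examined (9 genes and 4 ratios in each diet) this was the 1 that stood out. Chance flags about 1 in 20 groups, so 1 of 26 is near what chance gives. Without control replicate 2 the difference between diets in this ratio was 0.32 in log2, against 0.36 with all libraries.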

How the results depend on the processing

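Idh2 and Mdh1 both passed, and no other of the 9 genes did, with every other scaling tried (size factors of DESeq2, upper quartiles, library totals), without the count filter or with one on mean CPM (1 or more), with limma-voom, with limma on log2(FPKM + 0.1), by the Wald test of DESeq2, with the replicate block and after removal of the GC and length trend. The number passing was 1 with limma on log2(FPKM + 1) and 0 on unfiltered log2(FPKM + 1) or without ketogenic replicates 3 and 4 together. It ran from 1 to 3 with each library left out: it was 1 without control replicate 1, 2 or 3 or ketogenic replicate 2, and 3 without control replicate 4. The median log2 change of the 9 ran from 0.04 to 0.09 over all 22 alternatives. Genes passing overall numbered 971, and became 1719 by the Wald test of DESeq2, 489 and 560 by limma on log2(FPKM + 1) and log2(FPKM + 0.1), 64 on unfiltered log2(FPKM + 1), 309 after trend removal, 90 with ketogenic replicates 3 and 4 both left out, and 146 (without control replicate 1) to 1900 (without control replicate 4) with single libraries left out. The split of 491 higher and 480 lower became 286 and 203 by limma on log2(FPKM + 1) and 331 and 229 on log2(FPKM + 0.1). The cause was not tested.

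Ogdh changed sign with the trend removed (-0.0094, and -0.0093 with the block as well), and ran from -0.0031 (without ketogenic replicate 1; -0.00018 without control replicate 3) to 0.0301 with single libraries left out. Idh1 ran from -0.053 (without control replicate 1; also -0.008 and -0.033 without control replicate 3 and ketogenic replicate 4) to 0.061, and was -0.028 without ketogenic replicates 3 and 4 together. The Ogdh to Sucla2 difference ran from -0.087 to 0.0104 (without ketogenic replicate 3), and was 0.0037 without ketogenic replicates 3 and 4 together. With the trend removed, the ratios of Idh2 to Idh3, Mdh1 to Mdh2 and Ogdh to Sucla2 passed, at 0.33, 0.24 and -0.14 (exact permutation, adjusted p = 0.0381 each). For Idh2 to Idh3 the adjusted p fell through the other ratios, its own p being the lowest possible already. Idh3a and Sucla2 had changes of 0.12 and 0.13 that did not pass.

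Replicate numbers are shared between diets, but deviations of same-numbered libraries correlated at 0.022 to 0.076 only, and 2 of 4 control libraries were closest to their own number, so no pairing was assumed. With a replicate block 1528 genes passed, 813 with the trend removed as well, and the difference in each ratio was the same by construction (0.36 for Idh2 to Idh3), where 4 pairs allow no p under 0.125.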
